A study of Mus musculus with 9 samples.

Results

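The vascular endothelial growth factor (VEGF) ligands and their receptors were examined in mouse stromal vascular fraction (SVF) cells, the mixed non-fat cells of adipose tissue, some of which began to beat in culture. The 10 genes were 5 ligands, Vegfa, Vegfb, Vegfc, Vegfd and Pgf, and 5 receptors, Kdr, Flt1, Flt4, Nrp1 and Nrp2, of 19938 genes that the array annotation names by a single symbol. Each was measured by 1 transcript cluster, the set of probes the array assigns to a gene, that carried this symbol alone (Vegfd under its older name Figf), so no choice between clusters was needed.

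All samples came from subcutaneous adipose tissue of C57BL6/J mice of 10 weeks. SVF was kept in a minimal serum-containing medium, with no other induction or treatment. On day 28, colonies that beat were lifted by hand, and those from a few dishes of a single SVF lot were pooled into each of 4 beating samples, and the remaining cells gave 4 non-beating samples. On day 14, a pool of 6 round cells, the form seen before beating, gave 1 further array. Beating samples were thus enriched by hand and may hold other cells, non-beating samples were a mixture, and the round pool has no replicate. Whether the replicates of a group differ in lot or animal is not given in the sources used here, so a p-value measures only their own spread, which may be technical.

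VEGF-A is the main growth factor of blood vessels and acts on endothelial cells through the receptor tyrosine kinases KDR and FLT1. VEGF-B and placental growth factor (PGF) bind FLT1, whereas VEGF-C and VEGF-D act on FLT4 and are best known for lymphatic vessels. Neuropilins, NRP1 and NRP2, bind both VEGFs and class 3 semaphorins and serve as co-receptors. In adipose tissue this family maintains the capillary bed, and in striated muscle and heart the muscle cells themselves secrete VEGF-A and VEGF-B.

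Vegfd was the only member to pass the test between beating and non-beating samples, and it was 2.95-fold lower in beating samples. Values are log2 signals, on which a difference of 1 is a doubling, and the test was limma over all 33323 clusters with a Benjamini-Hochberg adjusted p under 0.05. By this test 1 of 10 members was lower and 0 were higher, where 3.34% of all clusters were lower and 2.82% higher. Without an adjustment, 4 members were lower at a p under 0.05 (Vegfb, Vegfd, Nrp1 and Nrp2) and 0 were higher, where 12.0% of clusters were lower. In 5 members (Vegfb, Vegfc, Vegfd, Nrp1 and Nrp2) all 4 beating arrays lay below all 4 non-beating arrays, which 8.24% of clusters did. The mean was lower in beating samples for 9 members, where it was lower for 48.1% of all clusters. The median difference of the 10 was -0.29 against 0.01 over all clusters.

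**Figure D1:**
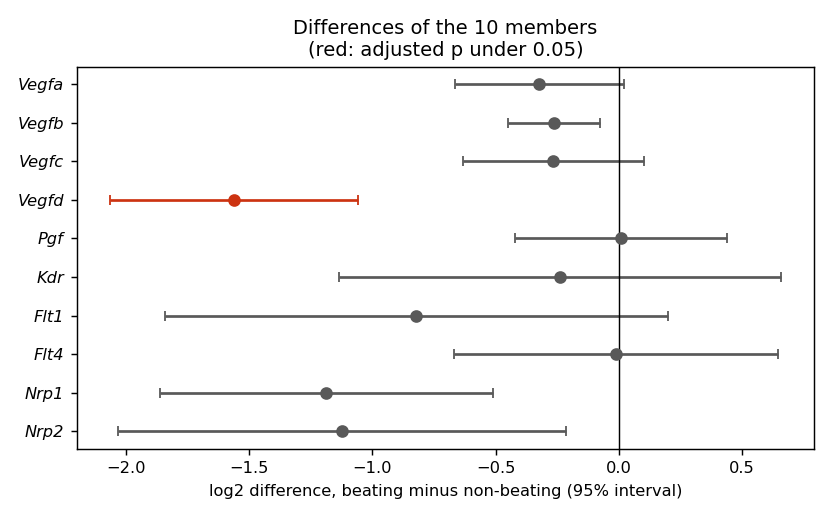
Log2 difference between beating and non-beating samples (n = 4 each) for the 10 members, with 95% intervals from limma. Only the interval of Vegfd, from -2.06 to -1.06, belongs to a member with an adjusted p under 0.05, and the intervals of Vegfb, Nrp1 and Nrp2 also lie below 0.

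Sequence upstream of the start is shown for the member that passed the test, Vegfd, and for Nrp1 and Flt1, the co-receptor and the kinase receptor with the largest differences in their classes. Each is the 250 bases before the annotated start from RefSeq on GRCm38.p6, read along the gene, at chrX:164373272-164373521 (plus strand), chr8:128358823-128359072 (plus) and chr5:147726012-147726261 (minus). Capitals mark the core that hypoxia-inducible factors recognise (ACGTG or GCGTG), the cyclic AMP response element (TGACGTCA) and the TATA box (TATAAA), searched on both strands, so that GCGTG on the other strand reads as CACGC.
Vegfd: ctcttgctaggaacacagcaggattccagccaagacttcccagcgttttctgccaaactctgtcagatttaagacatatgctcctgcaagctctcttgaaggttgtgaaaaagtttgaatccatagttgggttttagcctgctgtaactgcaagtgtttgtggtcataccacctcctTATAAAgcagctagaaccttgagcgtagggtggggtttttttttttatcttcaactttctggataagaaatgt
Nrp1: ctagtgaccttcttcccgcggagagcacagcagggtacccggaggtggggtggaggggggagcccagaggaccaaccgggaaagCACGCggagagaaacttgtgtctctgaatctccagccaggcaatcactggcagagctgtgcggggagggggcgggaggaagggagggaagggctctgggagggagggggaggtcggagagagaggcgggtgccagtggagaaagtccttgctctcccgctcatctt
Flt1: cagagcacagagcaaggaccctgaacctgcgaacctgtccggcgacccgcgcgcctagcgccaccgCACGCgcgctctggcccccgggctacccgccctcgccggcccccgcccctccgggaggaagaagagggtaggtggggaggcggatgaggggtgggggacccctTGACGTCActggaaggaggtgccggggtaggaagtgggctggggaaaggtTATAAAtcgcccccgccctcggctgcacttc

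The upstream sequence of Vegfd held a TATAAA at -73, counted from the annotated start, and neither hypoxia core. Its window of 300 bases, which runs 50 past the start, had 42.0% G and C, and 14.9% of the 32851 windows in the table had as little. Nrp1 held GCGTG at -166. In Flt1, GCGTG lay at -184, TGACGTCA at -81 and TATAAA at -31. Of the 12 windows of the 10 members, 1 held ACGTG (the second window of Vegfa, at -211) and 7 held GCGTG, among them that of Kdr at -131 and -89. The second window of Vegfa belongs to an annotated start that lies downstream of the first. Over all windows, ACGTG was found in 19.6%, GCGTG in 32.4%, TGACGTCA in 1.79% and TATAAA in 13.6%. Apart from Vegfd, every member window was rich in G and C, with at least 69.7% of all windows at or under its share. GCGTG is itself rich in these letters, and the counts were not set against windows of like content. These matches describe letters and not binding.

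Vegfa, the ligand of blood vessels, read 5.94, 6.11, 6.52 and 6.60 in the beating arrays and 6.64, 6.70, 6.57 and 6.55 in the non-beating arrays. Beating arrays 1 and 2 were the lowest and the groups overlapped by 1 beating array, since 3 of the 4 lay below every non-beating array. The difference was -0.32 ± 0.15 (SE, adjusted p = 0.268, limma), with a 95% interval from -0.67 to 0.02.

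Vegfb, which is abundant in heart, muscle and brown fat, was at 5.90, 5.67, 5.88 and 5.69 against 6.18, 6.04, 5.99 and 5.99. The groups did not overlap, but the difference was small, -0.26 ± 0.08 (SE, adjusted p = 0.105, limma), and did not pass.

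Vegfd, which was first described as a growth factor induced by c-Fos in mouse fibroblasts, read 9.63, 9.42, 8.86 and 9.26 in beating arrays and 11.30, 10.83, 10.89 and 10.39 in non-beating arrays. Every beating array was below every non-beating array, and the spread within a group was 0.33 (beating) and 0.37 (non-beating, SD, n = 4). The difference was -1.56 ± 0.22 (SE, adjusted p = 0.00640, limma). In arrays of mixed cells, fewer cells of a type and less RNA per cell cannot be told apart.

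Of 10 fibroblast markers, 3 passed the test, all lower in beating samples (Thy1, Pdgfra and Dcn, a surface protein, a growth factor receptor and a matrix proteoglycan of these cells), and the mean of the list lay between 7.13 and 7.53 in beating arrays and between 7.83 and 8.53 in non-beating arrays. Thy1 differed by -1.96 and Dcn by -1.17, and the lowest marker, Pi16, read 2.67 to 3.34. Col1a1, at 7.18 to 8.31 in beating and 7.03 to 7.38 in non-beating arrays, did not pass. The part of fibroblast content in the lower Vegfd was not tested. The study had shown Vegfd among genes it picked from these arrays, so its call is not independent evidence.

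Vegfc, the other lymphatic ligand, was 4.54, 5.22, 5.20 and 5.22 in beating against 5.43, 5.36, 5.24 and 5.23 in non-beating arrays. The highest beating and the lowest non-beating values were almost equal, and beating array 1 alone was far below the others. The difference was -0.27, with a 95% interval from -0.63 to 0.10 (adjusted p = 0.402, limma), and it was -0.10 without that array.

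Pgf, a ligand of FLT1, lay near the median of all clusters on an array (3.08 to 3.17) in both groups. It read 2.69, 3.08, 3.50 and 3.19 in beating arrays and 3.08, 2.96, 2.92 and 3.47 in non-beating arrays, which overlapped fully. The difference was 0.01, with a 95% interval from -0.42 to 0.44, and its sign turned in 6 alternatives.

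**Figure D2:**
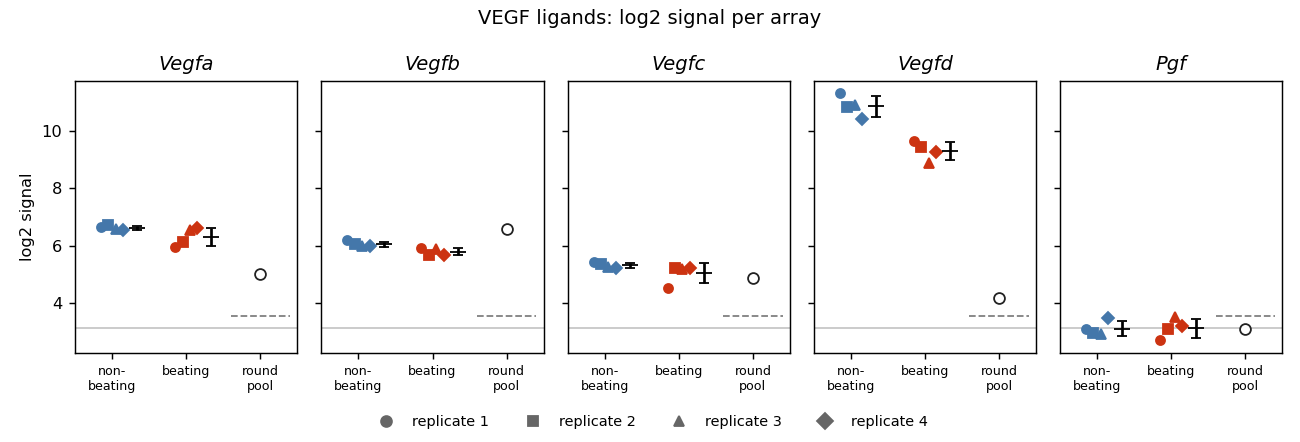
Log2 signal of the 5 ligands per array. Symbols mark the replicate, bars the mean and SD of 4 arrays, the open circle the single round pool, the grey band the medians of the 8 arrays (3.08 to 3.17) and the dashed line that of the pool (3.54). Vegfd separates the groups by more than their spread, whereas Pgf stays near the band.

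Unequal change among the ligands was tested on the 10 pairs, by the difference of their log2 differences in an exact two-sided permutation test over the 70 divisions of the 8 arrays. Vegfd changed by 1.24 more than Vegfa, by 1.30 more than Vegfb and by 1.29 more than Vegfc. Each of these 3 reached 0.0286, the smallest p the design allows by exact permutation, but none passed after adjustment over the 10 pairs (adjusted p = 0.0952). At that smallest p, the adjustment lets pairs pass only if most of the 10 reach it. This is more pairs than hold any single ligand, so a change of Vegfd alone could not pass. Against Pgf the change of Vegfd differed by -1.57 (exact permutation p = 0.0571, adjusted p = 0.143).

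The genes whose signal over the 8 arrays was most like that of Vegfd were Gxylt2 (a xylosyltransferase, Pearson r = 0.988), Ecrg4 (a secreted peptide precursor, 0.987) and Emb (the adhesion protein embigin, 0.987), as a description over arrays that share the 2 groups. Ecrg4 differed by -2.21, Emb by -1.55 and Gxylt2 by -0.71 between beating and non-beating samples. In the round pool they read 4.08, 3.37 and 4.48, below all 8 other arrays in each case, as Vegfd did.

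Of the proteins that process or release VEGFs, 10 of 11 listed were measured and 1 passed, in the lower direction. It was Ctsd, the lysosomal protease cathepsin D that can cleave VEGF-C and VEGF-D, at 9.09, 8.97, 9.13 and 9.53 in beating and 10.01, 10.20, 9.62 and 10.14 in non-beating arrays. Its difference was -0.81 ± 0.16 (SE, adjusted p = 0.0260, limma). The median of the list was -0.32, and Ccbe1 and Adamts3, the cofactor and protease that activate VEGF-C, did not pass.

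Of the 5 receptors none passed the test, and 2, Nrp1 and Nrp2, had an unadjusted p under 0.05. Kdr, the main signalling receptor of VEGF-A, was 2.84, 2.69, 3.82 and 4.37 in beating and 3.36, 3.36, 3.80 and 4.16 in non-beating arrays. Beating arrays 1 and 2 were the lowest of the 8 and beating array 4 was the highest. The difference was -0.24, with a 95% interval from -1.14 to 0.66, and its sign turned with array weights or without beating array 2.

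Flt1, which binds VEGF-A, VEGF-B and PGF and can act as a decoy, read 3.60, 4.11, 5.54 and 5.56 against 5.44, 5.35, 5.54 and 5.78. Beating arrays 1 and 2 again lay below all others, whereas beating arrays 3 and 4 lay within the non-beating range. The mean difference of -0.82 had a 95% interval from -1.84 to 0.20 (adjusted p = 0.348, limma). It was -0.46 without beating array 1, -0.62 without beating array 2, and -1.11 without beating array 4.

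Flt4, the lymphatic receptor, was 2.49, 2.51, 3.42 and 3.60 in beating and 3.14, 2.60, 3.15 and 3.18 in non-beating arrays. The lowest and the highest arrays were both beating, so that the mean difference was -0.01 with an interval from -0.67 to 0.64. Its sign turned in 6 alternatives.

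Nrp1, the co-receptor of VEGF-A and of semaphorin 3A, read 5.39, 6.21, 6.57 and 6.67 in beating arrays and 6.98, 7.55, 7.31 and 7.75 in non-beating arrays. All beating arrays were below all non-beating arrays. The difference was -1.19 ± 0.29 (SE), or 2.28-fold, and its adjusted p of 0.0553 (limma) missed the threshold. Without beating array 1 the adjusted p was 0.0490, and over all alternatives it lay between 0.0145 and 0.147.

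Nrp2, which binds VEGF-C, VEGF-D and semaphorin 3F, was 3.73, 3.97, 5.08 and 5.08 against 5.08, 5.62, 5.31 and 6.35. Beating arrays 3 and 4 nearly touched the lowest non-beating array, and beating arrays 1 and 2 were lower. The difference was -1.12 ± 0.39 (SE, adjusted p = 0.149, limma).

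**Figure D3:**
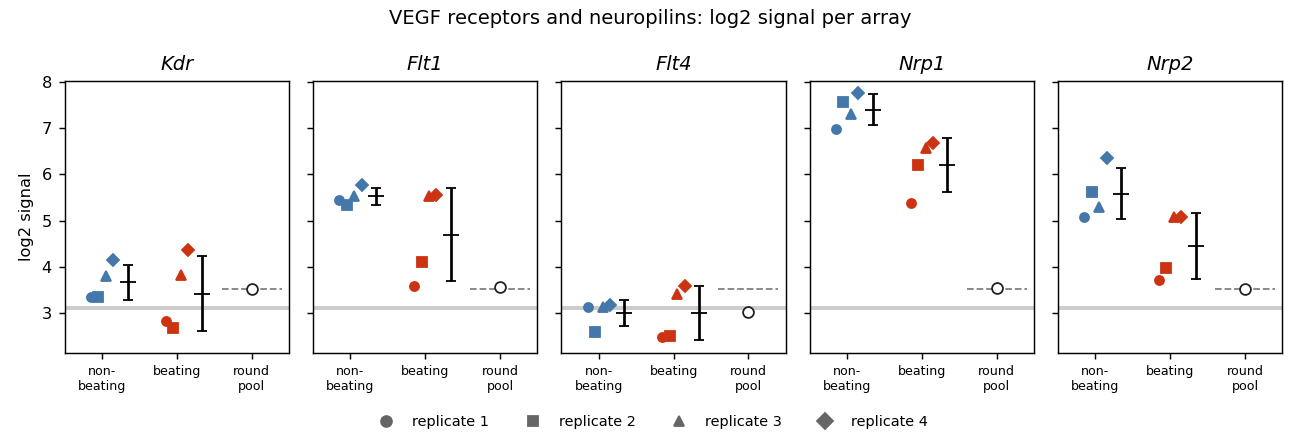
Log2 signal of the 5 receptors per array, with symbols, bars (mean and SD of 4 arrays), band and dashed line as for the ligands. Beating arrays 1 and 2 are lower than 3 and 4 for every receptor, and in Nrp1 all 4 beating arrays lie below the non-beating arrays.

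Among the 10 receptor pairs, 4 reached the smallest p of the exact two-sided permutation test, 0.0286. The change of Nrp2 was lower than that of Kdr by 0.88 and than that of Flt4 by 1.11, that of Nrp1 lower than that of Flt4 by 1.17, and that of Flt1 lower than that of Flt4 by 0.81 on the log2 scale. None passed after adjustment over the pairs (adjusted p = 0.0714), which here too needs most of the 10 pairs at the smallest p. Nrp1 and Nrp2 differed in their change by 0.06 (exact p = 0.743, the interval was not computed). Each of the 4 pairs at the smallest p held Flt4 or Kdr, the receptors of lowest mean signal in both groups. Flt4 read 2.49 to 3.60 and Kdr 2.69 to 4.37 over the 8 arrays, whose medians were 3.08 to 3.17. The part of this low signal in the unequal change was not tested.

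Markers of endothelial cells, in which Kdr and Flt1 are known to be expressed, had a mean over 15 genes of 3.57, 4.17, 4.70 and 4.90 in beating and 4.50, 4.14, 4.47 and 5.04 in non-beating arrays. None of the 15 passed, 0 had an unadjusted p under 0.05, and the median difference was -0.18. Cdh5, the adhesion protein of endothelial junctions, read 4.15, 6.98, 7.76 and 8.37 in beating and 7.22, 6.61, 7.34 and 8.10 in non-beating arrays. Emcn, the endothelial sialomucin endomucin, read 4.92, 9.26, 8.07 and 8.70 against 7.95, 6.81, 7.95 and 9.33.

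Over the whole list, 11 of the 15 markers in beating array 1 and 9 of the 15 in beating array 2 lay below all 4 non-beating arrays, as Kdr and Flt1 did, and 0 did so in beating arrays 3 and 4. Tek, the angiopoietin receptor TIE2, and Erg, an endothelial transcription factor, were below in both of these arrays. In beating array 2, Cdh5 and Emcn were among the 6 that were not. Esam was at the lowest level of the list, at 2.71 to 3.17. Other lists also had markers below all 4 non-beating arrays. In beating arrays 1 to 4 these were 13, 13, 12 and 5 of 14 macrophage markers and 8, 7, 6 and 6 of 10 fibroblast markers. They were 4, 3, 0 and 0 of 7 pericyte markers, and 0 of 12 striated muscle markers in each array. The share over all clusters in a single array was not computed. The part of endothelial content in the receptor values was not tested. Of 7 lymphatic endothelial markers measured, none passed (1 at an unadjusted p under 0.05), and 6 of the 7 had a lower mean in beating samples. The marker with that p was Pdpn, the mucin podoplanin, at 7.03 to 7.23 in beating and 7.41 to 8.41 in non-beating arrays. Prox1, their defining transcription factor, was the marker with a higher mean, at 3.01 to 4.15 against 2.78 to 3.33.

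Macrophages also carry FLT1 and neuropilins. The mean of 14 macrophage markers was 3.22, 3.81, 4.04 and 4.77 in beating arrays and 4.83, 5.87, 4.80 and 6.19 in non-beating arrays, so that the groups did not overlap. No marker passed, but all 14 had a lower mean in beating samples, 11 of them at an unadjusted p under 0.05, with a median difference of -1.11. Mrc1, the mannose receptor, was 3.29 to 7.06 in beating and 7.01 to 9.39 in non-beating arrays, and Cd163 lay at 2.21 to 2.41 throughout. Their part in the lower Nrp1 and Nrp2 was not tested.

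**Figure D4:**
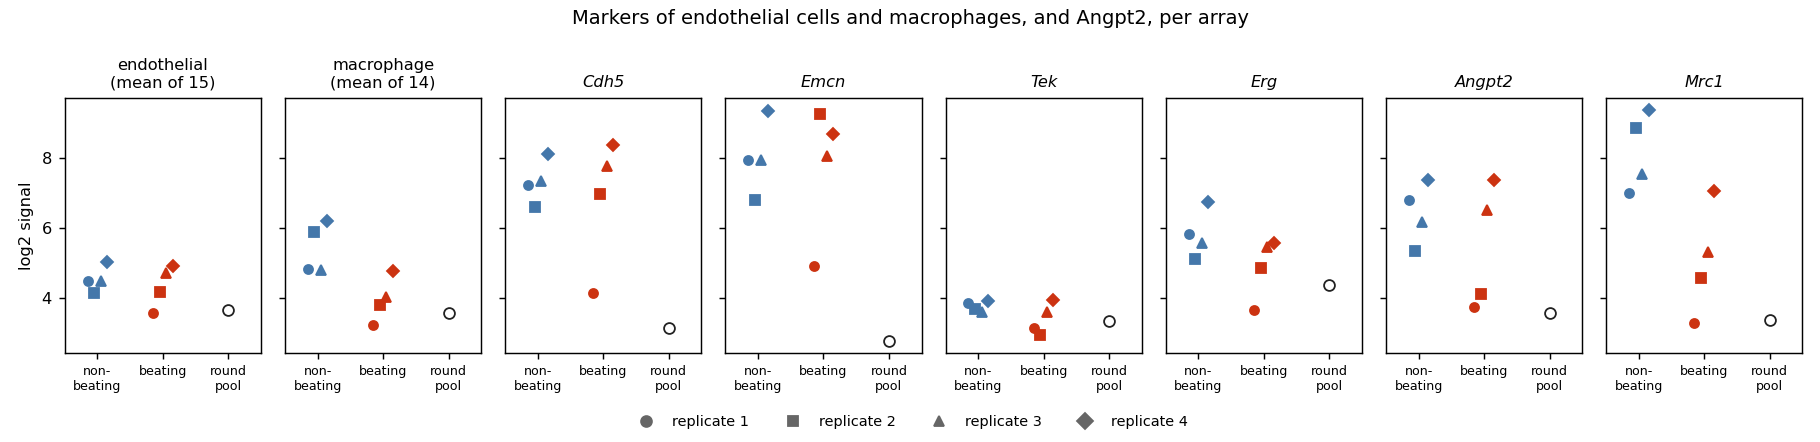
Log2 signal per array of the endothelial and macrophage marker means, of single markers and of Angpt2, an endothelial ligand; symbols mark the replicate and the open circle the round pool. Of the 15 endothelial markers, 11 are below all non-beating arrays in beating array 1 and 9 in beating array 2. The share over all clusters was not computed, and macrophage markers are low in these arrays too. Tek, Erg and Angpt2 are low in both, and Cdh5 and Emcn in beating array 1.

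Marker lists checked the labelled cells. All 12 striated muscle markers were higher in beating samples (list mean 8.51 to 8.75 against 3.61 to 3.95). Of 8 heart-restricted genes 1, Myh6, was higher, by 0.41. It read 2.68 to 2.90 in beating and 2.29 to 2.46 in non-beating arrays, all below the array medians of 3.08 to 3.17. Of 9 adipocyte markers 2, Adipoq and Pparg, were lower, and of 7 pericyte markers 1, Abcc9, was higher.

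Several class 3 semaphorins, though not all, compete with VEGFs for the neuropilins. Of 13 semaphorins, plexins and adaptors, 2 were higher and 0 lower in beating samples by limma, with a median of -0.07. At an unadjusted p under 0.05, 4 were higher and 2 lower. Sema3e, the ligand of plexin D1 that repels vessels, read 4.31, 5.70, 4.50 and 4.50 against 3.10, 3.09, 2.95 and 3.21, a difference of 1.67 (adjusted p = 0.0142, limma). Sema3a, the guidance ligand of NRP1, read 5.93, 5.75, 5.37 and 5.50 against 5.01, 4.70, 5.00 and 5.13, a difference of 0.67 (adjusted p = 0.0321). In both genes every beating array exceeded every non-beating array.

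Downstream of the receptors, 3 of 26 measured signalling genes passed, 1 higher and 2 lower, with a median of -0.02. Fyn, a Src-family kinase, was higher by 0.69. Pik3r1, the regulatory subunit of phosphoinositide 3-kinase, differed by -0.75 (adjusted p = 0.00322, limma), at 7.01 to 7.25 in beating and 7.72 to 8.08 in non-beating arrays, and Rac1, a small GTPase of cell migration, by -0.36. All are used by many receptors.

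Hypoxia induces Vegfa through the hypoxia-inducible factors (HIFs), and of 10 genes of this sensor 1 was higher and 2 were lower. Hif1a, the regulated subunit, read 8.26, 8.39, 8.56 and 8.68 in beating and 9.17, 9.38, 9.26 and 9.21 in non-beating arrays, a difference of -0.78 (adjusted p = 0.00445, limma). It too had been shown among genes picked from these arrays. Egln1 and Egln3, prolyl hydroxylases that mark HIF for degradation, differed by -0.43 and 1.74 respectively, in opposite directions.

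Of 20 measured HIF target genes, 1 was higher and 3 were lower, with a median of -0.15. Adm, the vasodilator peptide adrenomedullin, was lower by 1.37 on the log2 scale, at 5.07 to 6.04 against 6.52 to 7.56. Ero1a, an oxidase of the endoplasmic reticulum, differed by -1.04 and P4ha2, a collagen prolyl hydroxylase, by -0.70, whereas Aldoa, a glycolytic enzyme abundant in muscle, differed by 0.70. None of the 5 genes of the PGC-1 axis, coactivators and receptors that induce Vegfa in muscle, passed (1 at an unadjusted p under 0.05).

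Of 11 measured vessel growth factors outside the VEGF family, 1 was higher and 2 were lower, with a median of -0.46. Angpt1, the agonist of the TIE2 receptor, read 5.24, 5.51, 5.72 and 4.79 in beating and 4.46, 4.17, 3.37 and 4.23 in non-beating arrays, a difference of 1.26 (adjusted p = 0.0360, limma). Cxcl12, a stromal chemokine, differed by -1.47 (adjusted p = 0.0226) and Hgf, hepatocyte growth factor, by -1.20 (adjusted p = 0.0278). Angpt2 read 3.74, 4.11, 6.51 and 7.38 against 6.79, 5.34, 6.18 and 7.37, low in beating arrays 1 and 2 as Kdr and Flt1 were. Of 9 measured genes listed as inhibitors of vessel growth, 1 was higher, by 0.76. It was Vash2, a tubulin carboxypeptidase that is not an established inhibitor, so its rise is not read as that of an inhibitor. Its relative Vash1 was not measured. The median of that list was -0.28, and 7 of the 9 had a lower mean in beating samples, 4 of them at an unadjusted p under 0.05, but none of these passed.

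In the round pool 5 members read below all 8 other arrays, 1 above them and 4 within their range. Over all clusters, 24.4% lay below and 46.4% above, and the median cluster was 0.22 above the non-beating mean. The distribution of the pool thus differed from that of the other arrays in both directions. With median centring of the 9 arrays this median was -0.23, and with quantile normalisation it was 0.02. This array has no replicate, so no test was made.

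Vegfd read 4.17 in the pool, 6.68 below its non-beating mean on the log2 scale. Nrp1 read 3.55, Nrp2 3.52, Flt1 3.57 and Vegfa 5.02, and all stayed below the 8 arrays under median centring and quantile normalisation of the 9 arrays. The median of all clusters in the pool was 3.54, so Nrp1, Nrp2 and Flt1 read about at that median. Thy1 and Dcn, the fibroblast markers, read 4.96 and 4.27, and Cdh5 3.14, also below the other arrays. The mean of the 12 striated muscle markers was 8.06. Some genes outside the marker lists were low too. Hif1a read 2.80 (8.26 to 9.38 in the 8 arrays), Nck1 3.92 (6.34 to 7.20) and Ppp3ca 4.43 (7.39 to 7.76). Others were not, as Ldha (7.29) and Aldoa (9.49) lay within the range of the 8 arrays and Fyn (7.53) above it. The paper raises the concern of noise from so small a pool. The parts of cell type and of RNA input in these low values were not tested.

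Vegfb, at 6.58, was the member above all 8, by 0.53 over the non-beating mean. With median centring this excess was 0.08 and within the range of the others, and with quantile normalisation it was 1.66. Vegfc read 4.88, 0.43 below the non-beating mean as deposited and 0.28 above it with quantile normalisation. Kdr (3.54), Flt4 (3.02) and Pgf (3.08) lay within the range of the other arrays as deposited.

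**Figure D5:**
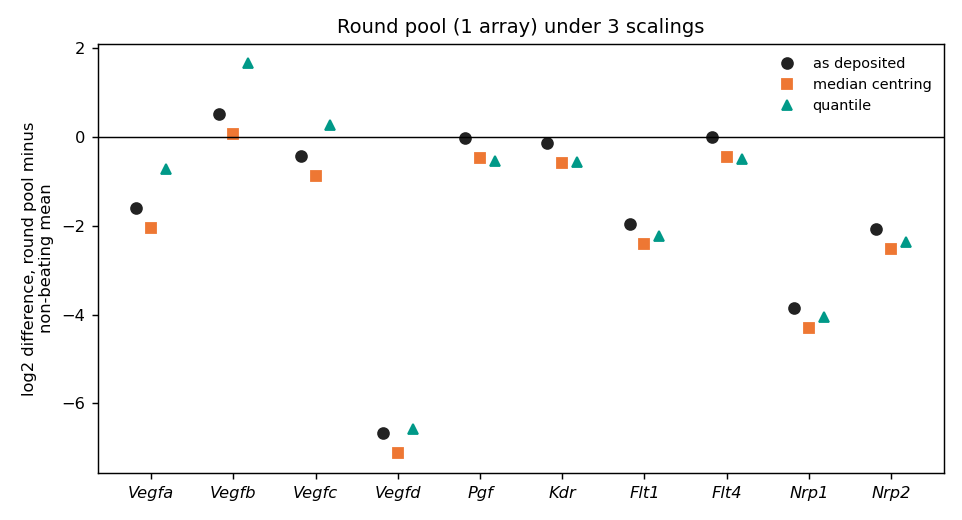
Round pool (1 array) minus the mean of 4 non-beating arrays, in log2 signal, for each member under 3 scalings. Vegfd, Nrp1, Nrp2, Flt1 and Vegfa lie below 0 under each, Vegfb lies above 0 under each, and Vegfc and Flt4 change sign.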

How the data were processed

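RNA of 9 samples (4 beating, 4 non-beating, 1 round pool) was amplified with a whole-transcriptome kit and hybridised to Affymetrix Mouse Gene 1.0 ST arrays. Per the methods, the scans were processed in GeneChip Command Console. The authors then took the raw data into BRB-ArrayTools 4.6.0 for log2 scaling and normalisation around the mean. The deposited values are log2 signals per transcript cluster, and how that table was made is not given in the sources used here. They were used as deposited. Of 33323 clusters, 21789 had 1 gene symbol, 1621 several and 9913 none in the annotation used, and symbols were updated through the gene number. Array number limits the precision.

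Beating was compared with non-beating samples by a two-sided moderated test (lmFit, then eBayes) in limma 3.58.1 under R 4.3.3, with Benjamini-Hochberg adjustment over all clusters. The fit was tested on simulated data. Members and gene lists were chosen with earlier results of these data known. Named were all members, up to 4 called genes of each list with the largest change, the 3 genes most correlated with a called member, and lowest and highest markers. Further markers, Ccbe1, Adamts3 and Angpt2 were named after their values were seen. Listed genes that lack such a cluster were not analysed here. Promoter sequences matched all 10 members. Alternatives covered scaling, filters, variance model, array weights, the methods' two-sample test, a replicate block and leaving out each array.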

Additional observations from a re-analysis of the deposited data

Results flagged for a closer look

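Vegfb in the round pool, an array outside the comparison of beating with non-beating samples, read 6.58 and exceeded all 8 other arrays. As given above, it lay within their range after median centring.

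Of 20 groups of 4 arrays tested for a value far from the others, 2 had a gap over range above Dixon's 95% critical value, where chance flags about 1 in 20. In Vegfc, beating array 1 was low, with a gap of 0.962 of the range. In Flt4, non-beating array 2 was low, with a gap of 0.927 of the range.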

How the results depend on the processing

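Vegfd was lower in beating samples under all 17 alternatives, by 1.41 to 1.71 on the log2 scale, and passed in 16 (adjusted p 0.000983 to 0.0372, limma and the methods' two-sample test). It missed in the methods' test at an unadjusted p under 0.0001 with a 1.5-fold prefilter, which called 0 members. Nrp1 passed in 6 alternatives, Vegfb with median centring (adjusted p = 0.0416) and Nrp2 with the prefilter (adjusted p = 0.0420). The number of members lower was therefore 3 with median centring and with the prefilter, 2 without dim clusters and with array weights, and 1 to 2 when 1 array was left out, where it was 2 without beating array 1. The share of all clusters lower was 4.85% with median centring, 10.7% with the prefilter, 9.57% without dim clusters and 3.52% with array weights, and the prefilter and the filter on dim clusters each left 8 members to test. Clusters higher and lower numbered 491 and 375 with the two-sample test adjusted and 195 and 26 with it unadjusted. Leaving out 1 array gave 569 to 914 clusters higher and 438 to 1023 lower.

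Signs turned only in members that did not pass. Pgf became -0.048 with median centring and -0.052 with quantile normalisation and lay between -0.12 and 0.15 without 1 array. Kdr became 0.0020 with array weights and lay between -0.55 and 0.0091 without 1 array, and Flt4 became 0.18 with array weights and lay between -0.21 and 0.16 without 1 array, turning without beating array 1 or 2 or non-beating array 1, 3 or 4. The cause was not tested. In the round pool, 8 of 40 differences turned. Against the non-beating mean these were Vegfc (0.28, quantile) and Flt4 (-0.45 with median centring, -0.50 with quantile). Against the beating mean they were Vegfc (0.53, quantile), Kdr (-0.29 and -0.25) and Flt4 (-0.38 and -0.42).

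Groups share replicate numbers in the labels. Per the methods, the non-beating cells were the other cells of the dish, but whether equal numbers mark the same dishes is not given. Over all clusters, same-numbered samples did not deviate together (correlations -0.012, 0.028, -0.009 and 0.020). Single members varied: Kdr was lower in arrays 1 and 2 than in 3 and 4 in both groups. In Vegfc, array 1 was the lowest beating and the highest non-beating array. The exact pair tests took no account of the numbers. With the replicate block, 637 clusters were higher and 645 lower, and 2 members, Vegfd and Nrp1 (adjusted p = 0.0283), were lower. Each member had 1 cluster, so the mean over clusters was no alternative, and without 1 array the exact pair tests could not go below 0.0571.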

Other observations

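Exactly equal values occurred among the 8 arrays in 4 members (Vegfc, Pgf, Flt1 and Nrp2) and in 48.9% of clusters. In Nrp2 the equal values were those of beating arrays 3 and 4, and in Flt1 those of beating array 3 and non-beating array 3.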
